A study of Homo sapiens with 36 samples.

Results

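The regions described here are 581 H3K27ac regions of EpCAM+ CD49f+ (POS) SUM-229PE cells whose acetylation moved after 24 hours of trametinib and stood near its day 0 level at day 14 of a separate, longer treatment. They comprise 378 transient gains and 203 transient losses among 30743 regions that could be matched between the acute POS table (50424 regions) and the chronic POS table (44343 regions). Members were chosen by measured values: a log2 ratio of acute trametinib over DMSO of at least 0.8 (gains) or at most -0.8 (losses), and a log2 ratio of day 14 over day 0 between -0.3 and 0.3. Ratios were taken between group means of CPM (counts scaled to a fixed column total) plus 0.5, and regions were matched where they overlapped each other by at least 50% of their length. The POS acute and POS day 14 values of the members are therefore a description, and no test of them is read.

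SUM-229PE is a triple-negative breast cancer cell line from a pleural effusion, and trametinib blocks the kinase MEK. Chromatin immunoprecipitation sequencing compared POS cells with EpCAM- CD49f- (NEG) cells of the same line. The groups used were DMSO (3 POS and 2 NEG libraries), 30 nM trametinib for 24 hours (3 POS, 2 NEG), and day 0 (D0) and day 14 (D14) of 10 nM trametinib (2 libraries each for POS and for NEG). POSR1 and POSR2, 2 libraries each, are labelled only as a POSR subpopulation, and the labels give them no treatment. JUNB was profiled in DMSO-treated POS and NEG cells (2 libraries each). All groups derive from 1 cell line, and the labels do not say whether replicates were separate cultures. A p-value here therefore covers only variation among these libraries, and that may be technical. The acute and day 14 arms differ in dose and in time, and no drug-free day 14 group was analysed here. Drug dose, length of treatment and time in culture cannot be told apart in a region that was near day 0 at day 14.

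H3K27ac marks active promoters and enhancers, and is deposited by the acetyltransferases p300 and CBP. MEK activates ERK, which in turn controls transcription factors such as AP-1, a dimer of FOS and JUN family proteins that includes JUNB. Inhibition of MEK in triple-negative breast cancer cells is known to be followed by adaptive changes of enhancers and of receptor kinase expression. Coordinates are those of build hg19 as the files give them. Regions were not assigned to genes, and no sequence of them is shown, because no annotation or genome of that build was used here.

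H3K27ac libraries held 1861227 to 9212006 counts in regions, with the chronic NEG libraries lowest (1861227 to 3617120). JUNB libraries held 4884516 to 8947351 counts. Replicate pairs had correlations of log2 CPM across regions of 0.937 to 0.983, regions not being independent replicates. No library was counted as a copy of another. Over all matched regions the median log2 ratio was 0.03 in the acute arm and -0.22 at day 14, so a region with a ratio of 0 at day 14 stood above the middle of the matched regions.

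Most acute responders kept or extended their change at day 14, and transient regions were a minority. Of 3984 matched regions with an acute log2 ratio of at least 0.8, 378 (9.49%) were transient and 2773 (69.6%) were also at least 0.8 higher at day 14, here called sustained gains. Only 106 (2.66%) were at least 0.8 lower at day 14, and 727 (18.2%) fell between these classes. Of 4513 acute losses, 203 (4.498%) were transient, 3830 (84.9%) were sustained losses, 23 (0.510%) turned to a gain of at least 0.8 and 457 (10.1%) lay between. A larger share of acute gains than of acute losses was thus transient on this scale. The balance of gains and losses rested on the scaling: with both ratios centred on their medians, a choice made after seeing the data, 255 gains and 330 losses met the rule, of which 188 and 145 were the same regions. The share of gains among members went from 65.1% to 43.6%.

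**Figure D1:**
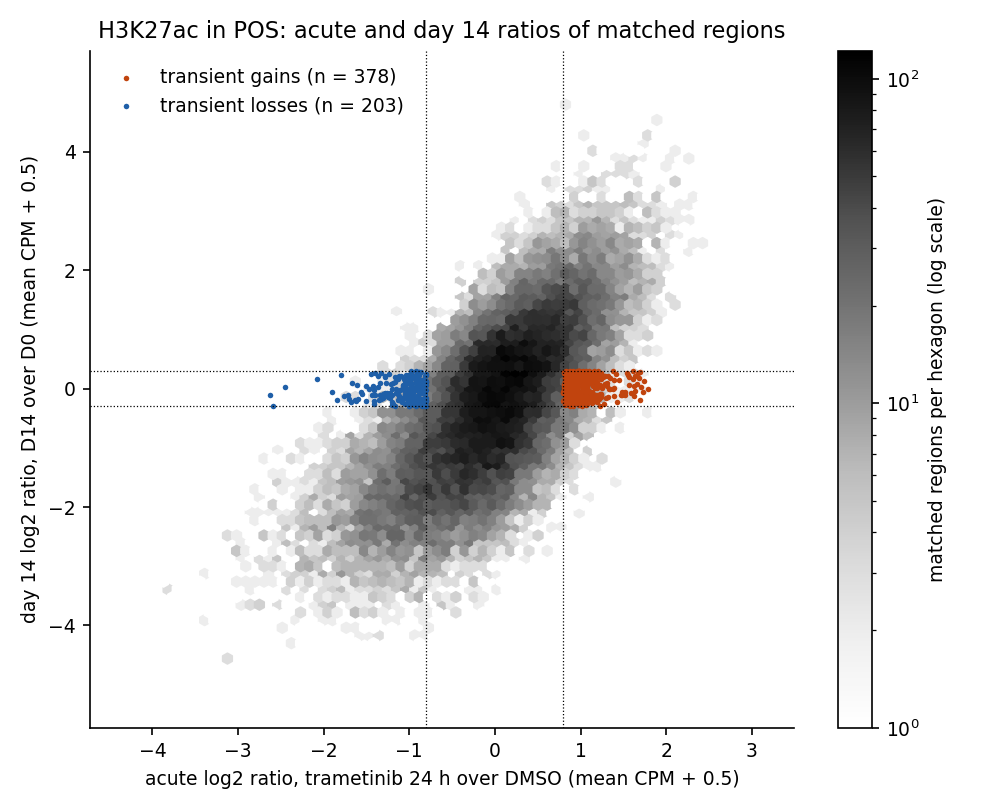
H3K27ac in POS cells over 30743 matched regions, with the acute log2 ratio (30 nM trametinib for 24 hours over DMSO) on the x axis and the day 14 log2 ratio (10 nM trametinib, D14 over D0) on the y axis. Grey hexagons count regions on a log scale, dotted lines are the thresholds of 0.8 and 0.3, and the 378 gains and 203 losses are coloured. The members form 2 flat bands beside a cloud in which both ratios mostly have the same sign.

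The table of the chronic arm limited which responders could be followed. In the acute table, 5876 regions had a ratio of at least 0.8 and 6976 of at most -0.8. Of these, 1892 and 2463 had no match in the chronic table, and 1048 and 1710 overlapped no chronic region at all. These regions could not be members, whatever their level at day 14.

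By the values that chose them, transient regions had smaller acute ratios than sustained ones. The acute log2 ratio of transient gains ran from 0.80 to 1.79 with a median of 0.99, against a median of 1.14 in sustained gains. In transient losses it ran from -2.62 to -0.80 with a median of -1.004, against -1.27 in sustained losses. At least 1 log2 unit was reached by 180 of 378 gains and 102 of 203 losses. Members just inside the acute threshold were chr2:172508405-172509406 and chr5:124299169-124300170 (both 0.80) among gains. Among losses they were chr20:52749429-52750430 and chr1:41444980-41445981 (both -0.80). Just outside lay chrX:15160464-15161465 and chr8:40065698-40066699 at 0.80, and chr1:21059527-21060528 and chr8:27976111-27977112 at -0.80, all 4 within the day 14 limit and none a member. At the day 14 limit, gains chr13:61339588-61340589 and chr7:65416654-65417655 were just inside (both 0.30), and chr7:37129486-37130487 (acute 1.72, day 14 0.30) and chr10:126773368-126774369 (-0.30) just outside. Losses chr8:128636902-128637903 and chr2:220832804-220833805 were just inside (both -0.30), and chr3:196358901-196359902 and chr19:58912553-58913554 (both -0.30) just outside. The classes are cuts in a continuous range, and regions on either side of a limit had the same values to 2 decimals.

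The 3 trametinib libraries stood apart from the 3 DMSO libraries in 377 of 378 gains and 201 of 203 losses. They did so in 98.8% of all 3984 matched acute gains and 99.5% of all 4513 acute losses, so this was not particular to members. The D0 and D14 libraries overlapped in 252 gains and 135 losses, which the day 14 limit favours. That overlap was not counted over all matched regions. In edgeR's quasi-likelihood test over the whole acute table, 26.7% of regions were called higher and 26.0% lower at an adjusted p under 0.05. All 378 gains were called higher and all 203 losses lower there, which the rule brings about. At day 14, where 39.5% of all regions tested were called higher and 38.2% lower, 10 gains and 2 losses were called higher. A total of 114 gains and 73 losses had a day 14 log2 ratio within 0.1 of 0.

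On a common scale, the day 0 and day 14 levels of most members lay nearer to the acute DMSO level than to the acute trametinib level. This scale is CPM over the 27897 regions matched in the acute, chronic and POSR tables, and it holds 322 gains and 194 losses. The tables were counted over separate region sets, so levels set across them are a description. Median levels of the gains were 16.3, 19.4 and 17.1 CPM in the DMSO libraries and 37.8, 38.9 and 37.7 CPM in the trametinib libraries. The D0 libraries stood at 19.6 and 20.2 CPM and the D14 libraries at 21.2 and 21.3 CPM. All 4 chronic medians were above the DMSO range and far below trametinib. The gains' D0 mean was closer to DMSO than to trametinib in 83.5% of regions and their D14 mean in 71.1%. In sustained gains the shares were 91.2% at D0 and 1.56% at D14, and over all 27897 regions they were 74.4% at D0 and 34.1% at D14. At D0, sustained gains were thus nearer to DMSO more often than transient gains. Both classes were chosen by their day 14 over day 0 ratio, so the gap between them at D14 follows from the choice.

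Losses showed the mirror image with less offset. Their median levels were 23.6, 25.5 and 23.9 CPM in DMSO and 11.3, 11.3 and 9.90 CPM under acute trametinib. D0 libraries had medians of 22.0 and 22.1 CPM, and D14 libraries 23.7 and 23.0 CPM. The D0 mean was closer to DMSO in 90.7% of losses and the D14 mean in 88.7%. In sustained losses the shares were 92.2% at D0 and 2.40% at D14. The gap at D14 again follows from how the classes were chosen. Relative to DMSO, the median log2 difference at D14 was 0.28 for gains and 0.02 for losses, beside -0.21 over all 27897 regions. At D0 it was 0.16 for gains and -0.07 for losses, beside -0.01 over all.

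**Figure D2:**
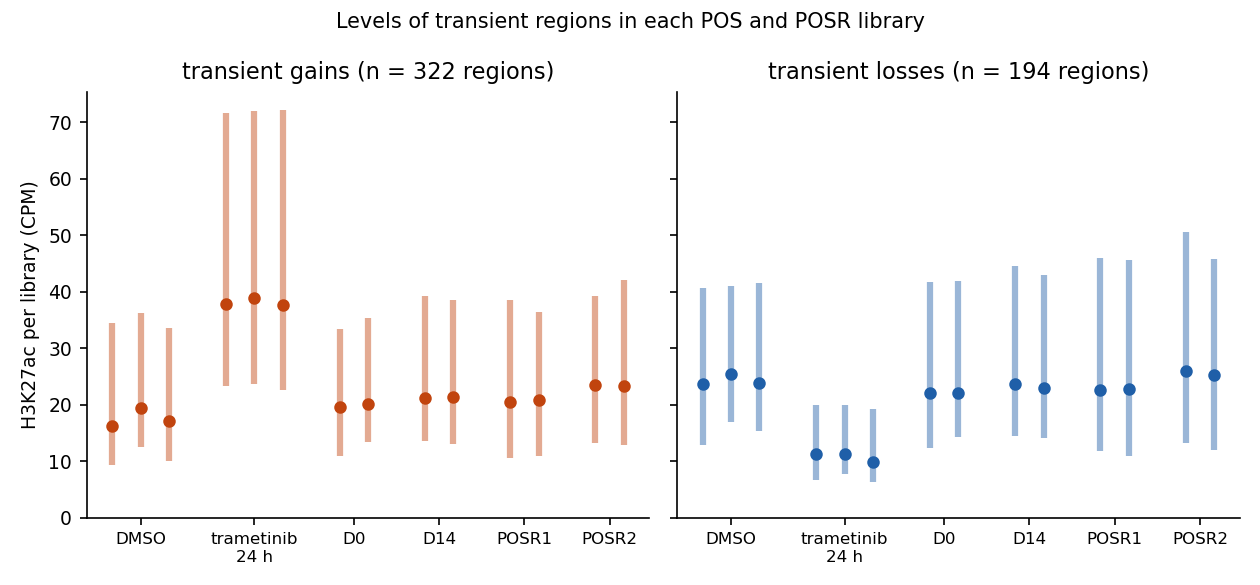
Median H3K27ac level (points) and the range between the lower and upper quartile (bars), in CPM over commonly matched regions, in each POS and POSR library for 322 transient gains and 194 transient losses. The 3 trametinib libraries stand apart at 37.7 to 38.9 CPM in gains and 9.90 to 11.3 CPM in losses, and the other libraries lie between 16.3 and 23.5 CPM in gains and between 22.0 and 26.0 CPM in losses.

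The gain with the greatest acute ratio among members present in all H3K27ac tables and at or above the median level was chr3:32955663-32956664 (acute 1.74, day 14 0.12). Its level was 29.5, 22.0 and 23.3 CPM in DMSO, 85.0, 80.3 and 87.7 CPM under acute trametinib, 29.9 and 30.0 CPM at D0 and 36.2 and 29.2 CPM at D14. The 3 trametinib libraries were all above every other POS library here. The next, chr6:123489846-123490847 (acute 1.70, day 14 -0.20), had 10.3, 11.1 and 10.3 CPM in DMSO and 32.3, 37.1 and 37.1 CPM under trametinib, then 14.4 and 21.9 CPM at D0 and 15.3 and 16.05 CPM at D14. Both chronic groups of this region lay above DMSO and below trametinib.

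At chr6:20906654-20907655 (acute 1.70, day 14 0.28) levels were 15.8, 19.1 and 13.3 CPM in DMSO and 54.9, 53.8 and 50.9 CPM under trametinib. Its D0 libraries had 21.0 and 22.2 CPM and its D14 libraries 25.6 and 27.1 CPM, so it was close to the day 14 limit and its D0 and D14 libraries did not overlap. At chr2:53131210-53132211 (acute 1.57, day 14 0.06) levels were 5.05, 7.11 and 7.19 CPM in DMSO, 17.9, 20.8 and 21.5 CPM under trametinib, 9.98 and 12.8 CPM at D0 and 13.0 and 10.8 CPM at D14. The D0 libraries of this region were already above all 3 DMSO libraries.

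The other 4 gains of this group were chr8:124399343-124400344, chr4:96559659-96560660, chr5:124379726-124380727 and chr11:111615970-111616971, with acute ratios of 1.34, 1.29, 1.26 and 1.25 and day 14 ratios of -0.01, 0.07, 0.20 and 0.02. chr5:124379726-124380727 was the most acetylated, with 55.6, 46.4 and 45.3 CPM in DMSO, 117, 122 and 117 CPM under trametinib, 60.9 and 64.7 CPM at D0 and 72.4 and 72.3 CPM at D14. In all 4 the trametinib libraries were above every DMSO, D0 and D14 library.

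Among losses, chr19:18484565-18485566 (acute -1.76, day 14 -0.12) had 30.5, 21.1 and 22.7 CPM in DMSO, 7.45, 6.35 and 7.06 CPM under trametinib, 46.0 and 43.7 CPM at D0 and 39.7 and 42.7 CPM at D14. Both chronic groups of this region lay above DMSO as well as above trametinib. At chr20:42603337-42604338 (acute -1.70, day 14 -0.17) levels were 33.0, 31.1 and 32.5 CPM in DMSO, 9.97, 9.88 and 8.79 CPM under trametinib, 35.2 and 37.5 CPM at D0 and 34.9 and 29.4 CPM at D14. The DMSO libraries lay within the range of the chronic libraries, and trametinib stood alone.

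The region chr15:67055590-67056591 (acute -1.66, day 14 0.10) had 37.7, 36.2 and 35.5 CPM in DMSO, 11.3, 12.0 and 10.2 CPM under trametinib, 39.2 and 44.4 CPM at D0 and 45.7 and 44.1 CPM at D14. At chr19:11434499-11435500 (acute -1.57, day 14 -0.05) the values were 26.1, 20.2 and 25.6 CPM, 8.11, 7.59 and 7.60 CPM, 28.2 and 23.4 CPM and 25.0 and 24.7 CPM in the same order. In both regions every trametinib library was lower than every other POS library. The remaining 4, chr5:142382131-142383132, chr13:27999479-28000480, chr3:196377675-196378676 and chr16:57972709-57973710, had acute ratios of -1.44, -1.41, -1.35 and -1.34 and day 14 ratios of -0.11, -0.20, -0.18 and -0.10.

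**Figure D3:**
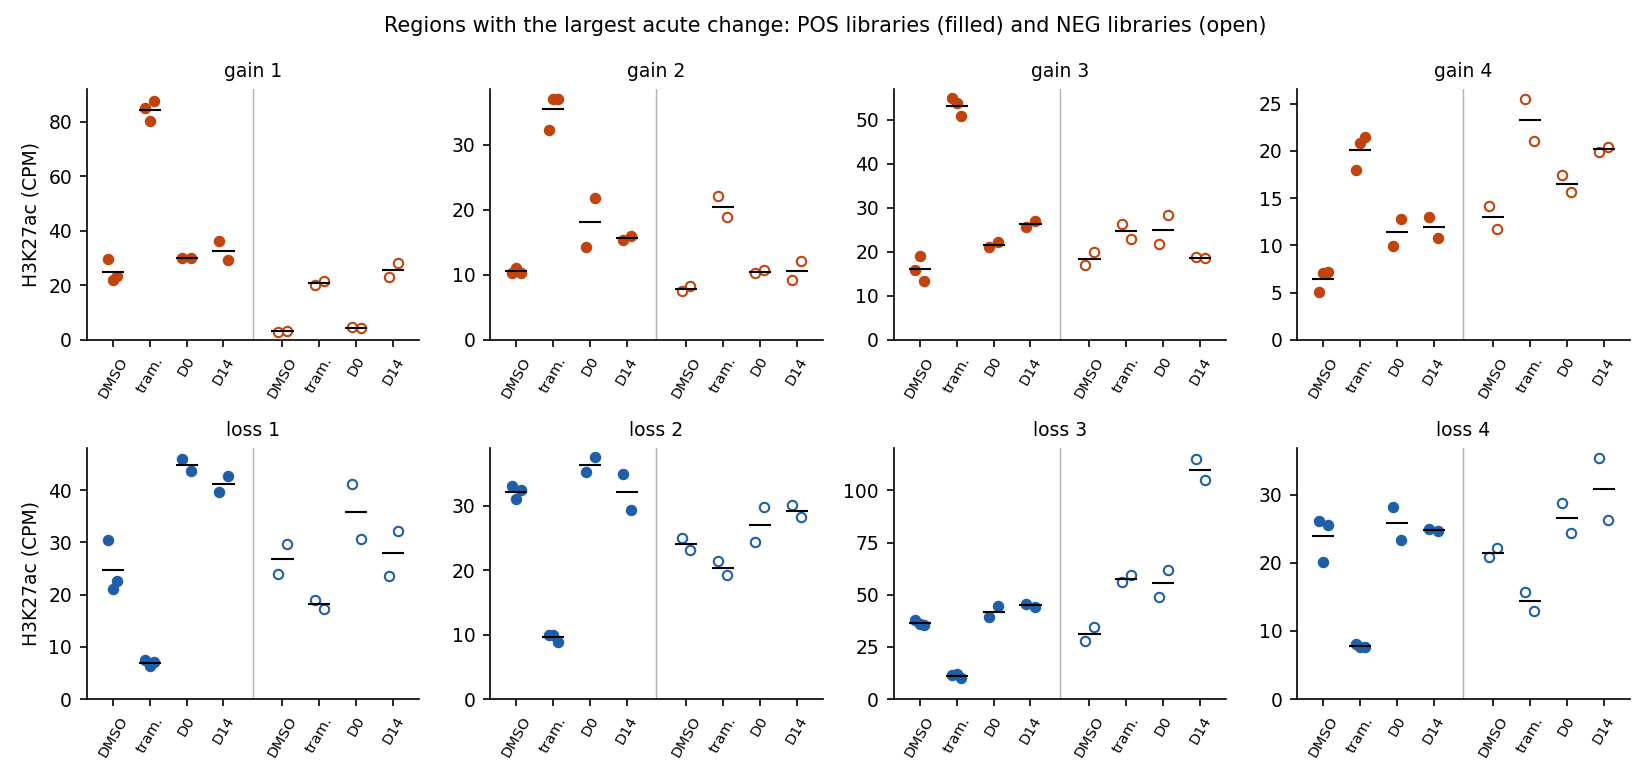
H3K27ac in CPM in every POS library (filled) and NEG library (open) of 4 gains and 4 losses, with lines at group means. They had the greatest acute ratios among members matched in every H3K27ac table, apart between acute groups and at or above the median level. Gains 1 to 4 are chr3:32955663-32956664, chr6:123489846-123490847, chr6:20906654-20907655 and chr2:53131210-53132211, and losses 1 to 4 are chr19:18484565-18485566, chr20:42603337-42604338, chr15:67055590-67056591 and chr19:11434499-11435500. Trametinib at 24 hours (tram.) is apart from DMSO in every POS panel, which the choice required. The NEG libraries follow it in some regions, and loss 3 goes from 27.7 and 34.8 to 56.0 and 59.4 CPM in NEG.

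Many of the transient regions that NEG cells share changed in NEG in the same direction at 24 hours. No NEG library entered the choice of members. Only 122 of 378 gains (32.3%) and 89 of 203 losses (43.8%) had a match in the acute NEG table, against 43.6% of all matched regions, so these counts do not speak for all members. Each NEG table is a union of regions found in its treated and control groups. A gain low in NEG controls could therefore be matched only where it rose under drug, so entry can favour the direction counted. Over the acute NEG table as a whole, 17.2% of regions tested were called higher and 19.3% lower. Of 121 gains tested, 63 were called higher and 3 lower, with a median log2 fold change of 0.47, beside -0.04 over all matched regions tested. The 3 called lower became 1 without NEG trametinib replicate 1 or without NEG DMSO replicate 1, and 0 with DESeq2. Of 89 losses tested, 56 were called lower and 7 higher, with a median of -0.57. DESeq2 called 3 of the losses higher. In sustained gains the counts were 316 higher and 10 lower of 468 (median 0.66), and in sustained losses 41 higher and 1484 lower of 1967 (median -0.81).

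At day 14 the gains were called higher in NEG more often than lower, and the losses were called about equally in both directions. Over the chronic NEG table as a whole, 24.8% of regions tested were called higher and 23.8% lower. Of 89 gains tested, 41 were called higher and 9 lower, with a median log2 fold change of 0.31. Of 94 losses tested, 22 were called higher and 23 lower, with a median of 0.00. The losses' shares were near the background in both directions, and the gains' share called higher, 46.1%, was above it. The size of that excess changed with the choice of members. With both POS ratios centred on their medians, a choice made after seeing the data, 16 of 55 gains tested (29.1%) were called higher. Of the same 55, 9 (16.4%) were called lower. DESeq2 made fewer calls throughout this table, and called 26 gains higher and 1 lower, and 10 losses higher and 13 lower. Without NEG D14 replicate 1 or without NEG D0 replicate 1, 14 losses were called higher, and without NEG D14 replicate 2, 5 gains were called lower. Sustained gains had 227 higher and 16 lower of 353 (median 0.67), and sustained losses 166 higher and 1157 lower of 2184 (median -0.45).

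Regions tested in both NEG tables show how far the NEG response at 24 hours was still present at day 14. Of 47 transient gains called higher in NEG at 24 hours, 24 were called higher at day 14, 2 lower and 21 neither. Of 189 sustained gains called higher at 24 hours, 137 were called higher at day 14, 5 lower and 47 neither. Of 48 transient losses called lower at 24 hours, 20 were called lower at day 14, 2 higher and 26 neither. Of 1320 sustained losses called lower at 24 hours, 832 were called lower at day 14, 48 higher and 440 neither. Over all matched regions, 2071 were called higher at 24 hours, and of these 1097 were called higher at day 14, 134 lower and 840 neither. Of 3384 called lower at 24 hours, 1799 were called lower at day 14, 187 higher and 1398 neither. The transient gains' share still higher was near that over all matched regions, and the transient losses' share still lower was below it. These are counts side by side, and the difference between transient and sustained regions was not tested.

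With the same thresholds applied to NEG, few members were transient there as well. For gains, 6 of 71 was a greater share than the 110 transient gains among the 10373 regions matched in all 4 tables. For losses it was 3 of 75, beside 261 transient losses among the same 10373. Of 71 gains matched in both NEG tables, 23 had an acute log2 ratio of at least 0.8, and of these 6 were within 0.3 at day 14 and 12 were at least 0.8 higher. Of 75 losses, 11 had an acute ratio of at most -0.8, with 3 transient and 4 sustained, and 3 had a ratio of at least 0.8. Over the 10373 regions matched in all 4 tables, 684 had a ratio of at least 0.8 and 1252 of at most -0.8 at 24 hours, and 110 and 261 of them were transient in NEG.

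**Figure D4:**
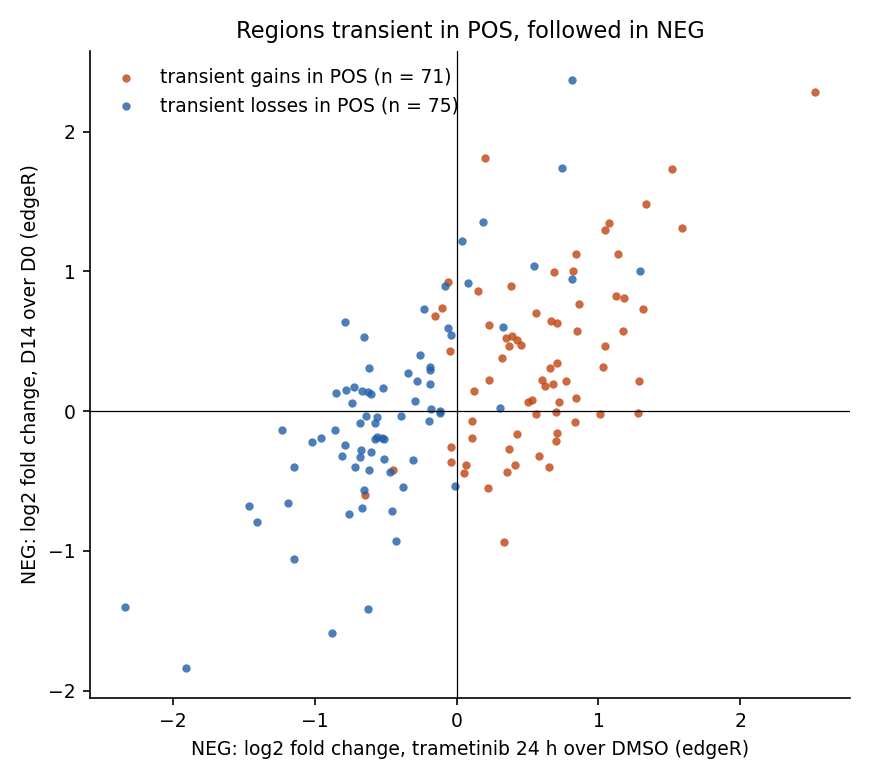
Log2 fold changes in NEG cells at 24 hours of trametinib (x axis) and at day 14 (y axis), from edgeR, for 71 gains and 75 losses of POS tested in both NEG tables. The gains lie mostly right of 0 and spread upward from 0, whereas the losses lie mostly left of 0 and centre near 0 at day 14.

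Single regions show each of these courses. In chr6:123489846-123490847 the NEG course was transient as in POS: 7.47 and 8.30 CPM in DMSO, 22.1 and 18.9 CPM under acute trametinib, 10.2 and 10.7 CPM at D0 and 9.13 and 12.2 CPM at D14. It rose at 24 hours (log2 fold change 1.28, SE 0.19, adjusted p = 9.4e-11), and at day 14 the log2 fold change was -0.01 (SE 0.30, adjusted p = 0.98). In chr3:32955663-32956664 the NEG gain was still there at day 14. NEG levels were 2.95 and 3.28 CPM in DMSO, 20.02 and 21.4 CPM under acute trametinib, 4.70 and 4.20 CPM at D0 and 23.1 and 28.3 CPM at D14. The change was 2.53 log2 (SE 0.23, adjusted p = 4.3e-27) at 24 hours and 2.29 (SE 0.28, adjusted p = 5.7e-11) at day 14, and in each arm both treated libraries were above both controls.

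chr8:117572132-117573133, a small gain in POS (acute 0.80; 23.4, 29.3 and 26.6 CPM in DMSO, 45.1, 47.3 and 46.9 CPM under trametinib), had higher levels in NEG. There it stood at 77.3 and 78.2 CPM in DMSO and 239.9 and 249.8 CPM under trametinib, then 96.8 and 100.04 CPM at D0 and 256 and 252 CPM at D14. It rose in NEG by 1.59 log2 at 24 hours (adjusted p = 7.4e-60) and by 1.31 log2 at day 14 (adjusted p = 1.8e-20). chrX:80571587-80572588 and chr2:147907036-147908037 also rose in NEG in both arms, by 1.52 and 1.34 log2 at 24 hours and 1.73 and 1.48 log2 at day 14. chr1:36731517-36732518 rose by 1.53 log2 in NEG at 24 hours (SE 0.15, adjusted p = 5.8e-22) and had no match in the chronic NEG table.

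A region that moved in NEG at day 14 without a call at 24 hours was chr2:172203503-172204504. Its NEG libraries had 13.0 and 12.5 CPM in DMSO and 14.5 and 16.1 CPM under acute trametinib, with 11.1 and 10.7 CPM at D0 and 41.9 and 41.4 CPM at D14. The day 14 rise was 1.81 log2 (SE 0.20, adjusted p = 1.1e-12), and the 24-hour value was 0.20 (adjusted p = 0.42). In POS this region had 12.6 and 14.7 CPM at D0 and 11.1 and 11.8 CPM at D14. The loss chr16:57972709-57973710 also moved in NEG at day 14 alone. It had 33.2 and 24.4 CPM at D0 and 70.9 and 72.6 CPM at D14 in NEG (log2 fold change 1.21, SE 0.14, adjusted p = 3e-11), and a 24-hour value of 0.04 (adjusted p = 0.88).

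Losses shared with NEG were led by chr9:111206839-111207840, which fell in NEG from 39.7 and 34.4 CPM in DMSO to 7.36 and 7.22 CPM under acute trametinib (log2 fold change -2.34, SE 0.17, adjusted p = 1.3e-40). At day 14 it was still lower, with 35.1 and 35.1 CPM at D0 and 15.6 and 11.2 CPM at D14 (log2 fold change -1.40, SE 0.20, adjusted p = 1.1e-08). In POS the same region had 15.6 and 14.4 CPM at D0 and 20.8 and 15.5 CPM at D14, which overlap. chr17:14678577-14679578 fell in NEG by 1.91 log2 at 24 hours and by 1.84 log2 at day 14, and chr10:70821042-70822043 by 1.47 and 0.68 log2. chr6:45593259-45594260 fell in NEG by 0.63 log2 at 24 hours and, from 88.7 and 81.7 CPM at D0 to 34.4 and 31.2 CPM at D14, by 1.42 log2 at day 14.

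Some members went the other way in NEG. In 9 of 89 losses and 5 of 122 gains matched in the acute NEG table, the 24-hour libraries of POS and of NEG were each apart from their DMSO libraries, in opposite directions. Of these, 7 losses were called higher and 3 gains lower in NEG, or 7.87% and 2.48% of those tested. Over all matched regions tested, 20.3% were called higher and 28.4% lower. With 2 NEG libraries per group, libraries can stand apart without a change, and the share of such moves over all matched regions was not counted. The loss with the greatest NEG rise, picked out after its values were seen, was chr3:194925511-194926512. Its NEG levels were 19.5 and 19.9 CPM in DMSO and 48.0 and 53.7 CPM under acute trametinib (log2 fold change 1.29, SE 0.13, adjusted p = 1.74e-20). At chr15:67055590-67056591 NEG levels were 27.7 and 34.8 CPM in DMSO, 56.0 and 59.4 CPM under acute trametinib, 48.9 and 61.9 CPM at D0 and 115 and 104.8 CPM at D14. It rose at 24 hours (log2 fold change 0.82, SE 0.12, adjusted p = 3e-10) and at day 14 (log2 fold change 0.95, SE 0.12, adjusted p = 2.1e-10), with treated and control libraries apart in both arms. At chr5:111110283-111111284 POS levels were 14.2, 16.4 and 12.2 CPM in DMSO and 5.85, 6.53 and 4.56 CPM under trametinib, whereas NEG levels were 16.9 and 23.0 CPM and 40.0 and 33.8 CPM. In the chronic arm its NEG libraries had 21.3 and 23.3 CPM at D0 and 120.4 and 123 CPM at D14 (log2 fold change 2.37, SE 0.13, adjusted p = 1.5e-25), while POS had 10.3 and 10.6 CPM and 10.4 and 9.47 CPM. The POS and NEG responses were not tested against each other, since the POS response chose the members.

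POSR1 and POSR2 differed from each other in transient regions in both directions, mostly at shares near those over all regions. The test of POSR2 against POSR1 uses no difference that the rule used, although the POS DMSO libraries stayed in the fit for the spread. Over all regions tested, 21.2% were called higher in POSR2 and 19.3% lower. Of 322 gains tested, 95 were called higher and 70 lower (median log2 fold change 0.08). Of 194 losses, 50 were called higher and 29 lower (median 0.01). The shares called higher were 29.5% of gains and 25.8% of losses, and those called lower 21.7% and 14.9%. Sustained gains had 925 higher and 259 lower of 2115 (median 0.38), and sustained losses 503 higher and 1307 lower of 3746 (median -0.24). Among gains called lower, the 70 became 45 with DESeq2 or without POSR1 replicate 2. Among losses called higher, the 50 became 31 with DESeq2, 33 and 32 without POSR1 replicate 1 and 2, and 30 without POSR2 replicate 2. Losses called lower became 18 without POSR1 replicate 2.

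chr8:117572132-117573133 had the greatest difference among the gains, with 5.53 and 3.70 CPM in POSR1 and 48.4 and 44.3 CPM in POSR2 (log2 fold change 3.23, SE 0.19, adjusted p = 6.1e-61). chr4:55903769-55904770 had 4.70 and 3.70 CPM in POSR1 and 32.2 and 31.4 CPM in POSR2, and chr11:1671465-1672466 had 3.45 and 4.27 and 20.1 and 22.4 CPM. Their POS DMSO libraries had 25.3, 24.6 and 25.8 CPM and 19.96, 17.8 and 18.9 CPM, nearer to POSR2. Among losses, chr16:86817220-86818221 had 2.76 and 2.81 CPM in POSR1 and 18.7 and 17.5 CPM in POSR2 (log2 fold change 2.54, SE 0.21, adjusted p = 2.7e-32). chr20:34690598-34691599 had 11.1 and 8.53 and 46.3 and 48.2 CPM, and chr1:46636970-46637971 had 8.01 and 6.96 and 32.6 and 30.5 CPM. In all 6 regions POSR2 was the higher of the pair and the libraries did not overlap.

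Against POS, the POSR libraries taken as 1 group share the POS DMSO libraries with the rule, so these values stand as a description. Over all regions tested there, 17.5% were called higher and 18.5% lower. Of 322 gains, 101 were called higher and 20 lower in POSR (median log2 fold change 0.31), and of 194 losses, 57 higher and 38 lower (median 0.02). These counts leaned on single control libraries. Without POS DMSO replicate 3, 61 gains were called higher and 13 lower, and 31 losses higher. Without replicate 1 or without replicate 2, 12 gains were called lower. At chr19:18484565-18485566 POSR1 had 59.6 and 65.8 CPM and POSR2 66.2 and 61.2 CPM, above the 30.5, 21.1 and 22.7 CPM of DMSO. At chr20:42603337-42604338 they had 44.5 and 59.5 and 62.7 and 75.3 CPM. chr6:45593259-45594260 went the other way, with 2.21 and 1.35 CPM in POSR1 and 3.23 and 4.28 CPM in POSR2 beside 18.0, 18.2 and 18.7 CPM in DMSO.

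In DMSO-treated cells, transient regions were mostly more acetylated in POS than in NEG, as matched regions were in general. This comparison also shares the POS DMSO libraries with the rule. Of all regions tested in it, 38.6% were called higher in POS and 38.0% lower. Of 284 gains, 207 were called higher in POS and 30 lower, with a median log2 fold change of 1.59. Of 190 losses, 115 were higher and 40 lower, with a median of 1.01. Over all matched regions tested the median was 0.88, with 59.6% higher and 18.3% lower. The POS tables supplied the regions, so a lean toward POS is built into all of these sets. The regions chr2:53131210-53132211, chr8:124399343-124400344 and chr11:111615970-111616971 were the reverse, with POS over NEG log2 fold changes of -1.02, -0.72 and -1.45.

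JUNB sites, profiled in DMSO-treated cells, lay in most transient regions. A site counted where at least 50% of it lay inside the H3K27ac region. Of 378 gains 328 (86.8%) held a site, and of 203 losses 195 (96.1%), beside 86.5% of all matched regions. Sustained gains held one in 67.4% and sustained losses in 95.6%. At least 2 sites were found in 10.6% of gains and 22.2% of losses, beside 13.7% of all matched regions and 14.9% of sustained losses. Because regions with more acetylation hold sites more often, shares were also taken within 5 groups of DMSO level. In the lowest group 72.9% of 96 gains held a site, beside 64.1% of all matched regions and 50.4% of sustained gains. From the second group to the highest, the gains' shares were 82.8%, 96.4%, 97.3% and 89.2%, beside 86.9%, 91.2%, 94.6% and 95.6% of all matched regions. The gains thus stood above all matched regions in 3 of the 5 groups and below them in the second and the highest. Sustained gains had 82.2%, 90.8%, 94.7% and 92.9% from the second group up. Their gap to transient gains was widest in the lowest group and reversed in the highest. Losses stood above all matched regions in every group, at 78.9% of 19 regions in the lowest and 96.1% in the middle group. Sustained losses held a site in 87.4% in the lowest group, above transient losses, and were below them in the other groups. No test of these shares was made.

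**Figure D5:**
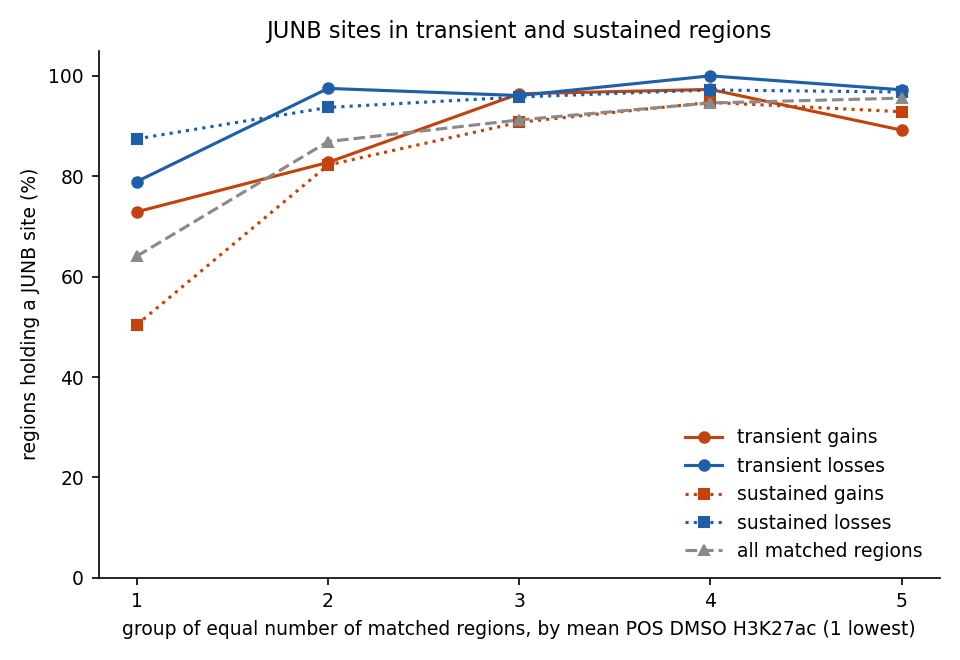
Percent of regions that hold a JUNB site (y axis) in 5 groups of matched regions ordered by mean POS DMSO H3K27ac (x axis), for transient and sustained gains and losses and for all matched regions. Shares rise with level in the lower groups. Transient gains stand at 72.9% in the lowest group beside 50.4% of sustained gains, and at 89.2% in the highest beside 92.9%.

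JUNB in the gains was mostly stronger in POS. Over all JUNB sites tested 28.5% were called higher in POS and 29.4% lower. At the strongest site of each region, 213 of 324 gains tested were called higher in POS and 30 lower, with a median log2 fold change of 1.41. In losses 93 of 195 were higher and 34 lower, with a median of 0.53. All matched regions with a tested site had 12302 higher and 4407 lower of 26390, with a median of 0.53. Losses thus stood at the median of matched regions, and gains above it. Sustained gains had a median of 1.69 and sustained losses of 0.11. Median JUNB levels in the gains were 7.26 and 7.17 CPM in POS and 2.01 and 1.68 CPM in NEG. In the losses they were 6.82 and 7.98 CPM in POS and 4.25 and 4.72 CPM in NEG.

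JUNB and H3K27ac leaned the same way between DMSO-treated POS and NEG cells in these regions. In gains whose JUNB site was called higher in POS, the median H3K27ac difference of POS over NEG was 2.18 log2 (164 regions tested). In gains whose site was called higher in NEG it was -0.77 (25 regions), and where the site was not called it was 0.36 (65 regions). Losses had medians of 2.15, -0.69 and 0.08 in the same classes (88, 28 and 66 regions). All matched regions had 2.10, -0.66 and 0.25. Median NEG fold changes at 24 hours in the same classes were 0.46, 0.46 and 0.50 log2 in the gains (37, 22 and 53 regions). In the losses they were -0.32, -0.62 and -0.56 log2 (12, 25 and 50 regions), beside 0.08, -0.21 and -0.05 over all matched regions. The lean between the marks was as large in all matched regions as in the transient ones.

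The regions with the greatest JUNB difference had no match in either NEG trametinib table. In chr5:134986833-134987834, the site chr5:134986920-134987121 had 36.1 and 41.6 CPM in POS and 0.591 and 0.842 CPM in NEG (log2 fold change 5.28, SE 0.34, adjusted p = 3.7e-52). In chr11:102654495-102655496 the site chr11:102654527-102654728 had 24.9 and 17.6 CPM in POS and 0.236 and 0.337 CPM in NEG, and in chr4:91095227-91096228 the site chr4:91095902-91096103 had 42.0 and 37.7 and 0.709 and 1.18 CPM. Among losses, the site chr2:101944315-101944516 in chr2:101944240-101945241 had 22.4 and 19.4 CPM in POS and 0.591 and 0.337 CPM in NEG (log2 fold change 4.77, SE 0.36, adjusted p = 3.8e-38). The losses chr20:35987094-35988095 and chr11:117947349-117948350 had 38.4 and 36.2 CPM and 7.49 and 9.01 CPM of JUNB in POS, and 1.77 and 0.168 CPM and 0 and 0.168 CPM in NEG. In each of these 6 regions both POS libraries were above both NEG libraries.

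Other members held JUNB at like levels in both populations or more in NEG. The site chr20:42604021-42604222 in chr20:42603337-42604338 had 29.8 and 31.9 CPM in POS and 30.3 and 31.7 CPM in NEG, which overlap, and chr6:20907285-20907486 in chr6:20906654-20907655 had 31.7 and 37.5 CPM and 27.7 and 32.0 CPM. In chr8:117572132-117573133, chr8:117572375-117572576 had 7.60 and 9.01 CPM in POS and 33.4 and 40.3 CPM in NEG (log2 fold change -2.16, SE 0.25, adjusted p = 7.3e-17), and its H3K27ac was also higher in NEG (log2 fold change -1.39, SE 0.18, adjusted p = 5.5e-09). The gain chr8:124399343-124400344 held no JUNB site.

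Few transient regions had another of their kind within 10 kb, and few matched regions were transient at all (378 gains and 203 losses of 30743). The number of such neighbours expected from these counts was not taken, so clustering was not tested. Of 378 gains, 10 lay within 10 kb of another transient gain, 18 within 10 kb of a sustained gain and 100 within 10 kb of any matched region. Of 203 losses, 2 lay within 10 kb of another transient loss, 16 of a sustained loss and 50 of any matched region. The median ratios of those neighbours were 0.56 acute and 0.00 at day 14 for gains, and -0.77 and -0.41 for losses. The neighbours of sustained gains had medians of 0.56 and 0.72, and those of sustained losses -0.73 and -1.24. Neighbours thus had like acute ratios in both classes, with day 14 ratios nearer 0 beside transient regions. A single run of 3 gains was found, at chr15:96752195-96774645, with acute ratios of 0.83 to 1.02. Per chromosome, gains made up 0.42% (chromosome 17, 5 of 1183 matched regions) to 2.46% (chromosome 13, 18 of 732). Losses made up 0.23% (chromosome X, 2 of 868) to 1.65% (chromosome 20, 12 of 727).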

How the data were processed

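The authors deposited 7 tables of raw, whole-number counts per region and library, each over its own union of MACS2 regions, 1001 bases (H3K27ac) or 201 bases (JUNB) from start to end. The region start and end columns (another unit, base positions) were deposited by the authors on hg19. Tools listed in the submitters' processing notes are STAR 2.5.2b, cutadapt 1.12, MACS2, featureCounts and DESeq2, with other details not given in the sources used here. In the acute tables the treated columns are headed GSK and do not spell out trametinib, and they were read as trametinib from the table's name. The 10 inputs have no count column and were not used.

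Members, lists and tests were chosen with earlier results of these data known. CPM is count over column sum. Comparisons were fitted within each whole table with edgeR 4.0.16 in R 4.3.3: the quasi-likelihood test with TMM factors, prior count 2 and minimum count 10, and Benjamini-Hochberg adjustment over all regions tested, threshold 0.05. The test was tested on simulated data. SE is the log2 fold change over the square root of F. Named regions were, in each direction, the 8 members with the greatest acute ratio among those that were matched in every H3K27ac table, did not overlap between acute groups and were at or above the median level. To these came up to 3 per direction called in NEG acute, NEG day 14, POSR2 against POSR1 and JUNB by size of change, and those at each limit. Alternatives were DESeq2 1.42.0, other scalings, filters, thresholds and overlaps, a replicate block and leaving out each replicate. Counts are of reads, not of independent molecules. Tables were joined with python 3.11.15, numpy 2.4.6 and pandas 2.3.3, and plotted with matplotlib 3.10.9.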

Additional observations from a re-analysis of the deposited data

Results flagged for a closer look

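In 3 of the transient losses described by name every NEG library moved against POS at 24 hours: both NEG trametinib libraries were above both NEG DMSO libraries, while all 3 POS trametinib libraries were below all 3 POS DMSO libraries. The NEG log2 fold change was 0.82 at chr15:67055590-67056591, 0.82 at chr5:111110283-111111284 and 0.55 at chr20:34690598-34691599. The difference between the POS and NEG responses was not tested. Over all members, 9 of 89 losses and 5 of 122 gains matched in NEG showed such opposite moves. Their NEG log2 fold changes were up to 1.29 in losses, at chr3:194925511-194926512, and down to -0.65 in gains, at chr5:14958964-14959965. With 2 NEG libraries per group such moves can arise without a change, and their share over all matched regions was not counted. In the NEG test at 24 hours, 7.87% of losses tested were called higher, beside 20.3% of all matched regions tested. For gains called lower the share was 2.48%, beside 28.4%. Opposite calls were thus rarer among members than over all matched regions.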

How the results depend on the processing

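Of 296 alternative values, 256 stayed within 1.5 times the reported count, or within the exact 95% binomial interval of the reported share. A threshold of 1 with a day 14 limit of 0.2 left 121 gains and 73 losses, and centring on medians gave 330 losses. Leaving out single libraries gave 354 to 471 gains and 188 to 241 losses. DESeq2 gave, in NEG acute, 0 gains lower and 3 losses higher. In NEG day 14 it gave 26 gains higher and 1 lower, and 10 losses higher and 13 lower. In POSR2 against POSR1 it gave 45 gains lower and 31 losses higher. Members chosen on centred ratios, added after seeing the data, had 1 gain lower and 94 losses lower in NEG acute, and 16 gains higher, 36 losses higher and 39 losses lower in NEG day 14, with 80, 166, 55 and 168 regions tested (gains and losses, acute and then day 14). Leaving out a replicate gave 1 to 3 gains lower in NEG acute, and 5 to 9 gains lower and 14 to 21 losses higher in NEG day 14. In POSR2 against POSR1 it gave 45 to 84 gains lower, 30 to 56 losses higher and 18 to 41 losses lower. In POSR against POS it gave 61 to 103 gains higher, 12 to 20 gains lower and 31 to 57 losses higher.

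The share with a JUNB site was 82.0% of gains and 91.6% of losses with the whole site inside, and 75.9% and 91.6% for sites of at least 2 CPM. Replicate numbers only name libraries: correlations of same-numbered deviations were -0.19 to 0.09 in the comparisons not used to choose members, and 0.12, 0.37 and -0.01 in POS acute. With a replicate block, which also left out POS DMSO replicate 3 where POS DMSO was compared with groups of 2, POSR against POS gave 40 gains higher, 5 lower, 14 losses higher and 20 lower, and POS against NEG gave 25 losses lower. Without that library and with no block, these counts were 61, 13, 31, 28 and 29. Every other count with the block was within 1.5 times. The cause of these shifts was not tested. The NEG counts rest on 2 libraries per group and describe only the regions matched there.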
